A study of Homo sapiens with 6 samples.

Results

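The genes described here drive or restrain the passage of a cell from G1 into S phase. They are the D-type cyclins CCND1, CCND2 and CCND3, the kinases CDK4, CDK6 and CDK2, the kinase inhibitors CDKN1B, CDKN2C and CDKN2D, and the retinoblastoma gene RB1. The 10 genes were listed by symbol and found by Ensembl identifier among the 62696 genes counted. Of the 10 genes, 9 passed the filter on low counts, and CCND2 did not. The cells were C4-2, a human castration-resistant prostate cancer line with epithelial features, grown without drug treatment in RPMI1640 medium with fetal bovine serum. The vector group had 3 libraries of C4-2 cells labelled VEC with a WT genotype, and the knockout group had 3 libraries of C4-2 cells labelled CDK12KO, in which CDK12 was targeted with CRISPR-Cas9. CDK12 is a kinase of RNA polymerase II. The labels do not say how many edited clones were used or whether replicates were separate cultures, and a p-value therefore speaks only of how far these libraries scatter, perhaps for technical reasons. An effect of losing CDK12 and any other difference between the lines cannot be told apart.

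In G1, D-type cyclins rise with growth signals and bind CDK4 or CDK6. The active pairs begin to phosphorylate RB1, which otherwise holds E2F transcription factors in check, and CDK2 with cyclin E then completes the step. The INK4 proteins, among them p18 (CDKN2C) and p19 (CDKN2D), bind CDK4 and CDK6 and keep the cyclins away, while p27 (CDKN1B), a CIP/KIP protein, mainly blocks CDK2. Drugs that inhibit CDK4 and CDK6 need RB1 to arrest cells.

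Sequencing depth ran from 24660798 to 30732841 reads a library, and 16617644 to 21590817 of them fell in genes. Knockout library 2 stood apart: its log2 expression values correlated with those of the other libraries at 0.916 to 0.95, while the highest correlation of every other library was 0.987 or more, and its normalisation factor was 0.737 against 1.04 to 1.10. Results are therefore given with all 6 libraries and with the 5 libraries left without it. The luminal prostate marker KLK3 was at 4307 CPM or more in every library, and TP63, DCN, CD3E and PECAM1, which mark basal, stromal, T and endothelial cells, were at 0 in all 6 libraries (CPM, counts scaled to library size and composition). The summed level of 3 endothelial markers was 4.56 to 5.12 CPM in the vector and 6.61 to 10.3 CPM in the knockout libraries, nearly all of it VWF, and that of 5 fibroblast markers 21.7 to 23.0 and 23.7 to 30.2 CPM, mostly COL1A1. Leukocyte markers summed to 0.154 CPM at most and basal markers to 1.70 CPM. The 3 neuroendocrine markers summed to 2.14 to 11.1 CPM in the vector and 3 to 6.67 CPM in the knockout libraries, with CHGA at 7.32 CPM in vector library 1 and at 0.168 CPM or less in the others, and INSM1 counted in vector library 1 only. Their part in the results was not tested. The log2 ratio of CDK12 itself was 0.08 (edgeR adjusted p = 0.709), and a count over the whole gene does not show whether its reading frame was cut.

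CCND1, CCND3, CDK6 and RB1 were lower and CDKN2C and CDKN2D were higher in all 3 knockout libraries than in any vector library. For CCND1 this held only in reads it does not share with an opposite-strand gene. With all 6 libraries the edgeR quasi-likelihood test, adjusted over all genes at 0.05, called 0 of the 9 tested genes (background 0.596% of 15783 tested genes). DESeq2 called 2 and limma-voom called 0. At an unadjusted p under 0.05 edgeR gave 4 (background 21.7%, with 8.69% of genes lower). Without knockout library 2, 4 of 9 passed (44.4%, background 19.1% of 16339 genes). CCND1 and CDK6 fell, CDKN2C and CDKN2D rose, and DESeq2 and limma-voom each called 4 as well. The background by direction in that fit was 10.2% higher and 8.88% lower. The CPM ranges of the groups did not overlap for 6 of the 9 tested genes with all libraries (66.7%, background 39.4%), with 2 higher in the knockout (background 20.4%) and 4 lower (background 19.0%). Without knockout library 2 they did not overlap for 7 of 9 (77.8%, background 47.2%), 3 higher (background 24.5%) and 4 lower (background 22.8%). Bulk RNA cannot tell fewer cells of a kind from less RNA per cell. The median log2 fold change of the 9 genes was -0.16 with all libraries and -0.05 without knockout library 2, against 0.00 and -0.02 for all tested genes.

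**Figure D1:**
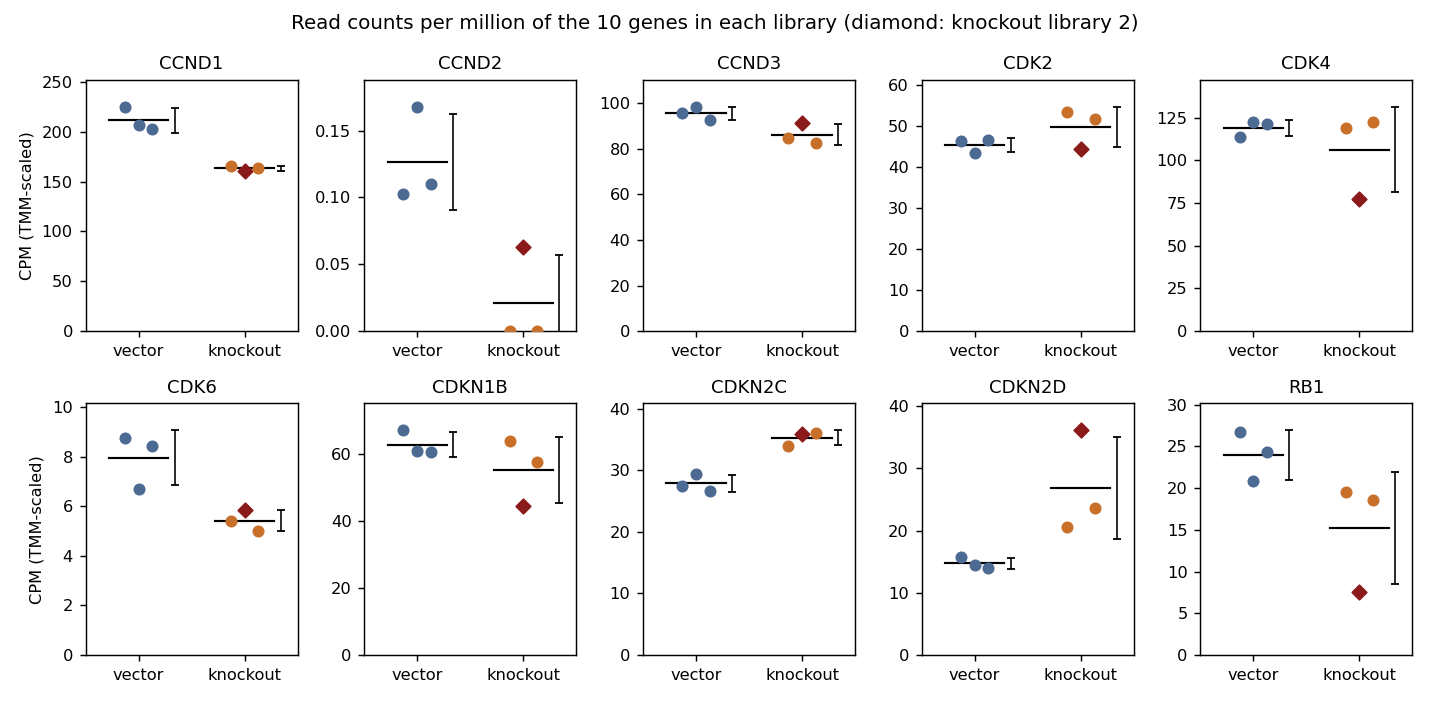
CPM (linear axis from 0) of each of the 10 genes in the 3 vector and 3 knockout libraries, with the group mean as a line and the SD as a bar, and knockout library 2 as a diamond. Among tested genes, CCND1, CCND3, CDK6 and RB1 lie lower and CDKN2C and CDKN2D higher in every knockout library than in any vector library. The diamond sits alone at the bottom for CDK4, CDKN1B and RB1 and at the top for CDKN2D, and shared reads are left out.

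CCND1 encodes cyclin D1, and it was the D-type cyclin with the most reads (ENSG00000110092.4, chromosome 11, 69641087 to 69654474 on the plus strand, GRCh38). It stood at 225, 206 and 202 CPM in vector libraries 1 to 3 and at 166, 160 and 164 CPM in knockout libraries 1 to 3. In these unshared reads the groups did not overlap, and knockout library 2 lay with the other knockout libraries. The log2 fold change was -0.37 ± 0.12 (SE; edgeR adjusted p = 0.191) with all 6 libraries. In the fit without knockout library 2 CCND1 fell by 0.37 on the log2 scale (SE 0.07, edgeR adjusted p = 0.000887). That call held in each of the 14 alternatives run, with adjusted p-values up to 0.0355. With shared reads added, the value over all 6 libraries turned to 0.04 (edgeR adjusted p = 0.900).

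CCND3 encodes cyclin D3 (ENSG00000112576.13, chromosome 6, 41934933 to 42050357, minus strand). Its levels were 95.7, 98.5 and 92.8 CPM in the vector and 84.7, 91.4 and 82.6 CPM in the knockout libraries. All 3 knockout values lay under the lowest vector value, by little in knockout library 2. CCND3 had a log2 ratio of -0.15 ± 0.11 (edgeR adjusted p = 0.384) with all libraries and -0.20 ± 0.07 without knockout library 2, where the adjusted p of 0.0544 lay just above the threshold. It passed when vector library 2 was left out too (edgeR adjusted p = 0.0267) and with a filter of 1 CPM in 3 libraries (0.0475). It also passed in the fit to the summed stranded columns (0.0381), where CCND3 itself gained at most 4 reads in a library.

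CCND2, the gene of cyclin D2 (ENSG00000118971.9, chromosome 12, 4273772 to 4305350), was barely detected in both lines. It had 2, 3 and 2 reads in the vector libraries and 0, 1 and 0 reads in the knockout libraries. A count of 0 allows up to 3 counts, which is 0.142 CPM in knockout library 1 and 0.155 CPM in knockout library 3, so no difference was detectable at this depth. Reads that CCND2 shares with AC008012.1, a GENCODE 29 gene on the same strand that covers 13.8% of its exonic bases, are not counted.

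CDK4, the main partner of cyclin D in most epithelial cells (ENSG00000135446.17, chromosome 12, 57747727 to 57756013, minus strand), stood at 114, 122 and 122 CPM in the vector libraries, against 119, 77.4 and 122 CPM in the knockout libraries. Knockout libraries 1 and 3 were level with the vector libraries, and knockout library 2 was at 65.0% of the vector mean. Over all libraries the log2 ratio was -0.16 ± 0.19 (edgeR adjusted p = 0.581), and leaving out knockout library 2 gave 0.02 ± 0.07 (edgeR adjusted p = 0.903). All these values leave out the reads CDK4 shares with TSPAN31. With those reads added, knockout libraries 1 to 3 stood at 292, 464 and 286 CPM, above the 237 to 259 CPM of the vector libraries.

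CDK6, the closest relative of CDK4 (ENSG00000105810.10, chromosome 7, 92604921 to 92836594, minus strand), was rare. It had 171, 120 and 154 reads in the vector libraries, or 8.75, 6.72 and 8.46 CPM. The knockout libraries had 115, 93 and 97 reads, or 5.43, 5.85 and 5.02 CPM, all under the lowest vector value. For CDK6 the log2 fold change was -0.56 ± 0.18 with all libraries (edgeR adjusted p = 0.204), and without knockout library 2 CDK6 fell by 0.62 on the log2 scale (SE 0.19, edgeR adjusted p = 0.0252). The call ended when vector library 1 or 3 or knockout library 1 or 3 was also left out (edgeR adjusted p = 0.102, 0.0843, 0.107 and 0.199), and when trends with length and GC were removed (log2 -0.45, edgeR adjusted p = 0.0684).

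CDK2, the kinase of cyclins E and A (ENSG00000123374.11, chromosome 12, 55966769 to 55972784, plus strand), was at 46.3, 43.4 and 46.5 CPM in the vector and 53.4, 44.3 and 51.7 CPM in the knockout libraries. Knockout libraries 1 and 3 lay above all vector libraries, and knockout library 2 lay among them. With all libraries the log2 ratio was 0.13 ± 0.12 (edgeR adjusted p = 0.478), and with 5 libraries it was 0.21 ± 0.08 (edgeR adjusted p = 0.0967). These counts leave out reads shared with opposite-strand genes, which made up 45% to 51.7% of all reads over CDK2 in the vector libraries. With those reads added, whichever gene they came from, the values were -0.22, of the opposite sign, and 0.03.

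CDKN2D encodes p19, the INK4 protein of the shortest gene here (ENSG00000129355.7, chromosome 19, 10566462 to 10569059, minus strand). It stood at 15.8, 14.5 and 14 CPM in the vector libraries, against 20.6, 36.1 and 23.6 CPM in the knockout libraries. Every knockout value was above every vector value, and knockout library 2 was highest, at 245% of the vector mean. Its log2 fold change was 0.86 ± 0.22 with all libraries (edgeR adjusted p = 0.157). Without knockout library 2 CDKN2D rose by 0.58 ± 0.12 (edgeR adjusted p = 0.00218), and this call ended only when knockout library 3 was left out as well (edgeR adjusted p = 0.0851), among 14 alternatives.

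CDKN2C encodes p18 (ENSG00000123080.12, chromosome 1, 50960745 to 50974633, plus strand). It was at 27.5, 29.5 and 26.7 CPM in the vector libraries, against 33.9, 36 and 36 CPM in the knockout libraries. The groups did not overlap, and knockout library 2 was level with knockout library 3. Its log2 ratio was 0.34 ± 0.11 (edgeR adjusted p = 0.204) with all libraries, and without knockout library 2 CDKN2C rose by 0.32 ± 0.10 (edgeR adjusted p = 0.0263). That call ended when vector library 1 or 3 or knockout library 1 or 3 was left out as well (edgeR adjusted p = 0.0675, 0.0889, 0.113 and 0.248).

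CDKN1B encodes p27 (ENSG00000111276.12, chromosome 12, 12715058 to 12722371, plus strand). It had 66.9, 60.7 and 60.4 CPM in the vector libraries, against 63.7, 44.4 and 57.6 CPM in the knockout libraries. Knockout library 2 was the lowest, at 70.8% of the vector mean, knockout library 3 lay just under the vector range and knockout library 1 inside it. Its log2 ratio was -0.18 ± 0.16 (edgeR adjusted p = 0.460), and leaving out knockout library 2 gave -0.05 ± 0.08 (edgeR adjusted p = 0.712).

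RB1 is the gene these kinases act on (ENSG00000139687.16, chromosome 13, 48303726 to 48599436, plus strand). It was at 26.7, 20.8 and 24.3 CPM in the vector libraries, against 19.5, 7.55 and 18.6 CPM in the knockout libraries. The groups did not overlap, and knockout library 2, with 120 reads, was at 31.5% of the vector mean. RB1 had a log2 ratio of -0.65 ± 0.34 (edgeR adjusted p = 0.278), and one of -0.34 ± 0.12 once that library was left out (edgeR adjusted p = 0.0583). RB1 passed with vector library 2 left out too (log2 -0.43, edgeR adjusted p = 0.00277) and with the stranded columns summed (-0.35, 0.0414).

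**Figure D2:**
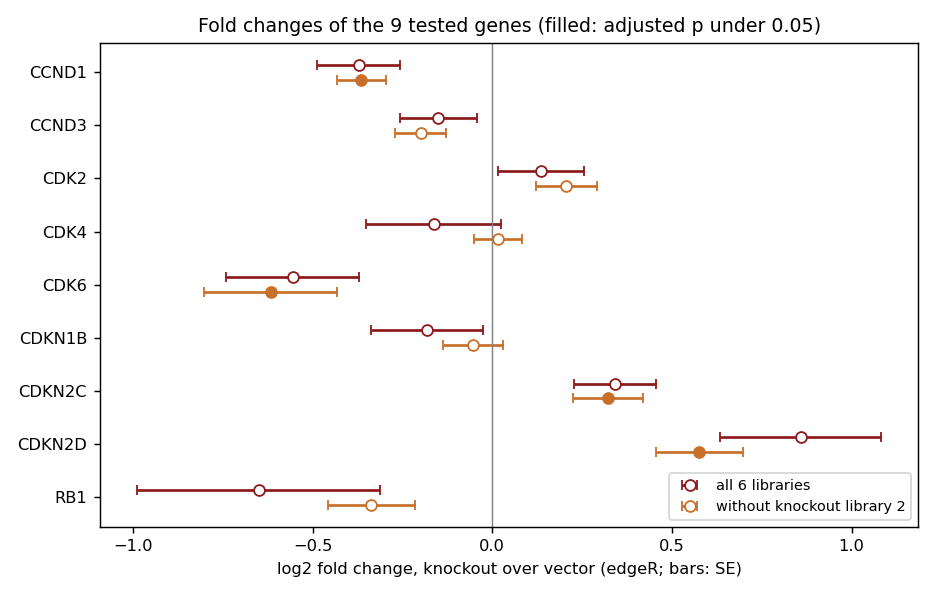
Log2 fold change of the 9 tested genes, knockout over vector, from edgeR with all 6 libraries and without knockout library 2, with the SE as bars and filled points for an adjusted p under 0.05. CCND1, CDK6, CDKN2C and CDKN2D are filled in the fit without knockout library 2, and 0 points are filled with all libraries.

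RefSeq promoter windows (GRCh38.p14) matched 7 of the 10 genes. Those of the genes that passed without knockout library 2 are shown 5′ to 3′, to let the sequence upstream of both INK4 genes be set beside that of CDK6. Only bases upstream of the first start and outside the GENCODE gene are printed. CCND1 had no match, and of the 3 CDKN2C starts the first is shown. The regions are chr19:10569060-10569229 (CDKN2D, minus strand), chr1:50960495-50960744 (CDKN2C, plus strand) and chr7:92836595-92836823 (CDK6, minus strand). Capitals mark a GC box (GGGCGG) or a CCAAT box (CCAAT), found on either strand.
CDKN2D: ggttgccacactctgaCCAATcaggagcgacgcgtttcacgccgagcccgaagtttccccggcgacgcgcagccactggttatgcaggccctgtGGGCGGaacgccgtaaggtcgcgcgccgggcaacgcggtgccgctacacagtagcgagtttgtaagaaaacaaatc
CDKN2C: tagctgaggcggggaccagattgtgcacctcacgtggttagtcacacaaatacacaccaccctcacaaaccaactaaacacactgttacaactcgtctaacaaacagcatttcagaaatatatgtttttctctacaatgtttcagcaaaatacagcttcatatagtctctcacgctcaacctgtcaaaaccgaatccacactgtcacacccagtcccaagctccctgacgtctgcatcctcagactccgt
CDK6: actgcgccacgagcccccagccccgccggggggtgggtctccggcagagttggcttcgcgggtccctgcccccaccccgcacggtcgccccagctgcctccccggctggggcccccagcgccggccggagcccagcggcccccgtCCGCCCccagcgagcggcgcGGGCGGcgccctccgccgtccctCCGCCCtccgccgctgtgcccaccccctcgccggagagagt
The CDKN2D stretch of 170 bases held 1 GC box and 1 CCAAT box, which do not overlap and which 29.5% and 22.0% of all 35116 RefSeq windows of that length hold. The CDK6 stretch of 229 bases held 3 GC boxes, as 39.8% of windows hold at least 1, and the CDKN2C stretch of 250 bases held neither motif. E2F letters (TTTCCCGC, TTTCGCGC, TTTGCCGC or TTTGGCGC, on both strands) were in none of the 3 stretches, and 1.85% to 2.79% of windows hold them. The cyclic AMP element TGACGTCA was in none of them either, against 0.624% to 1.65% of windows. GC content was 62.4% for CDKN2D, 45.6% for CDKN2C and 82.1% for CDK6. A match or its absence says nothing here about binding of a factor.

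CCND1, CDK4 and CDK2 overlap genes on the opposite strand, and the counts used above leave out every read in such a shared stretch. The libraries carry no strand signal (the totals of the 2 stranded columns had ratios of 1.02 to 1.04). Together the 2 stranded columns add those reads back, whichever of the genes they came from. The unstranded count is thus the part that belongs to 1 gene only, and the sum is an upper bound. This comparison was chosen after the data were seen.

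For CDK4 the stretch shared with TSPAN31, a tetraspanin gene, covers 1369 exonic bases at its 3′ end (57747727 to 57749795, 43.2% of its exonic bases in GENCODE 29). Shared reads of CDK4 and TSPAN31 were close but equal in 0 of 6 libraries (20215 and 20787 in all). It held 52.2%, 52.9% and 52.0% of the summed reads in the vector libraries, and 59.1%, 83.3% and 57.2% in the knockout libraries. In knockout library 2 that was 6138 of 7368 reads (95% Wilson interval 82.4% to 84.1%, counting error only). All knockout values lay above all vector values (exact two-sided permutation p = 0.1, the smallest that 3 against 3 allows). With the shared reads added, CDK4 was at 237, 259 and 253 CPM in the vector and 292, 464 and 286 CPM in the knockout libraries. The log2 fold change was then 0.45 ± 0.21 with all libraries (edgeR adjusted p = 0.252), opposite in sign to the value from unshared reads, and 0.19 ± 0.06 without knockout library 2 (edgeR adjusted p = 0.0354). TSPAN31 alone, in reads not shared, was at 14.9, 16.5 and 13.7 CPM in the vector and 16.3, 12.8 and 15.6 CPM in the knockout libraries.

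CCND1 shares its 3′ end with LTO1, a gene of iron-sulfur protein maturation, and the shared reads of both genes were equal in 6 of 6 libraries. The shared exonic bases number 497 (69653076 to 69654410) and are centred at 85.0% of the way from the 5′ end. They held 31.7%, 33.8% and 31.5% of the summed reads in the vector libraries and 38.7%, 63.8% and 39.4% in the knockout libraries (exact two-sided permutation p = 0.1). With them CCND1 was at 330, 312 and 295 CPM in the vector libraries, against 270, 443 and 270 CPM in the knockout libraries, so knockout library 2 moved from the lowest place to the highest. The log2 fold change became 0.04 ± 0.21 with all libraries (edgeR adjusted p = 0.900), and without knockout library 2 CCND1 still fell, by 0.23 on the log2 scale (SE 0.07, edgeR adjusted p = 0.0164). LTO1 alone was at 20.7 ± 0.816 CPM in the vector libraries (SD, n = 3) and at 23.9, 31.4 and 24.3 CPM in knockout libraries 1 to 3.

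CDK2 went the other way. Its shared reads were those of PMEL, a melanosome gene, plus those of the antisense gene ENSG00000258554, to the read in 5 of 6 libraries. PMEL shared 2575 of the 3899 reads, in 89 exonic bases centred at 60.7% of the way from the 5′ end. The antisense gene shared 1319, in 565 exonic bases centred at 9.8%. Both parts were small in knockout library 2, with 38 and 5 reads, against 422 to 605 and 210 to 361 in the other libraries. Shared reads of CDK2 made up 51.7%, 45% and 46.6% of the summed reads in the vector libraries. In the knockout libraries they made up 42.1%, 5.76% and 41.0% (exact two-sided permutation p = 0.1). Knockout library 2 held 43 such reads (95% Wilson interval 4.30% to 7.66%) where the others held 634 to 966. With them the log2 fold change of CDK2 was -0.22 ± 0.26 (edgeR adjusted p = 0.581) with all libraries and 0.03 ± 0.08 (edgeR adjusted p = 0.848) without knockout library 2. Leaving out knockout library 2 shrank the difference in shared percent from 14.9 to 6.68 points for CCND1, from 14.2 to 5.79 points for CDK4 and from -18.2 to -6.22 points for CDK2. CCND3, CDK6, CDKN1B, CDKN2D and RB1 had 0 to 4 shared reads in each library, and CDKN2C 16 to 54.

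**Figure D3:**
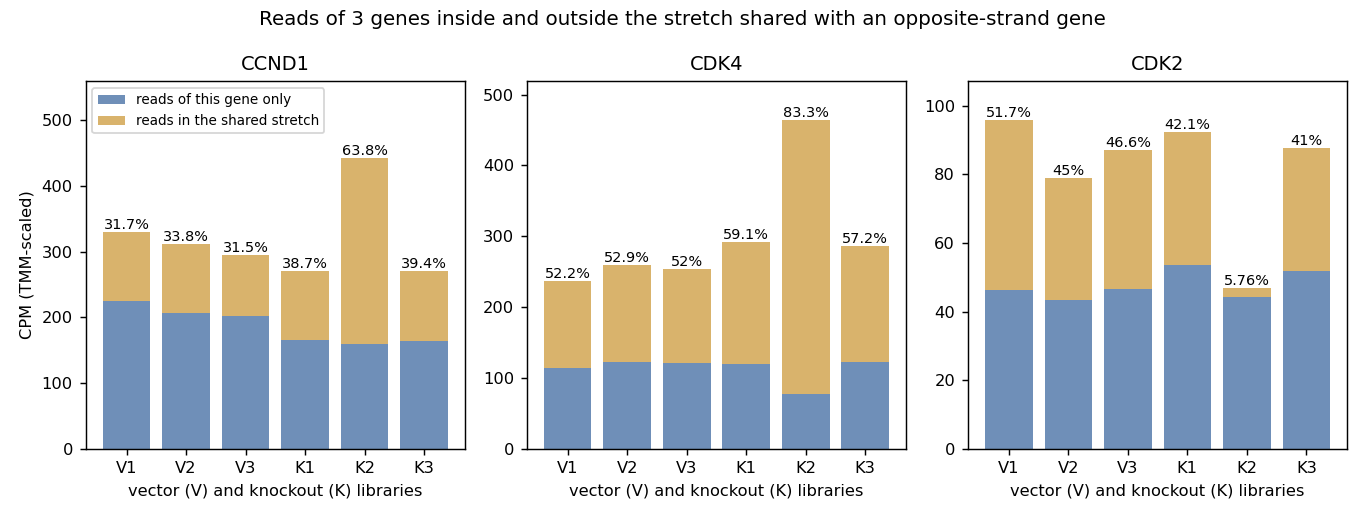
CPM (linear axis from 0) of CCND1, CDK4 and CDK2 in the vector (V) and knockout (K) libraries, split into reads of that gene only and reads in the stretch shared with an opposite-strand gene, with the shared percent above each bar. In knockout library 2 the shared part reached 63.8% for CCND1 and 83.3% for CDK4 and shrank to 5.76% for CDK2.

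CDKN2D and CDK6, at the ends of the range of transcript length, shifted the way short and long genes did across the whole table. CCND3 shifted against its length class. Among all tested genes, those with a longest transcript under 1.5 kb had a median log2 shift of 0.15, 0.76 and 0.20 in knockout libraries 1, 2 and 3, and those over 5 kb had -0.11, -0.44 and -0.12. CDKN2D has the shortest transcript of the 9 genes, 1.42 kb, and shifted by 0.48, 1.29 and 0.68. CDK6 has the longest, 11.61 kb, and shifted by -0.56, -0.45 and -0.67. CDKN2D lay beyond the median of its length class in all 3 libraries, and CDK6 in knockout libraries 1 and 3. In knockout library 2 CDK6 was level with its class median. The medians are of log2 CPM with a prior count of 2, and the shifts of single genes are of CPM without one. A small gap between them therefore cannot be read. RB1, at 4.79 kb, shifted by -0.30, -1.67 and -0.36, while genes of 3 to 5 kb had medians of -0.02, -0.18 and -0.03. CCND1, at 4.31 kb, shifted by -0.35, -0.40 and -0.37. Genes of 1.5 to 3 kb had medians of 0.08, 0.29 and 0.095. Of that length, CCND3 shifted by -0.18, -0.07 and -0.21, CDK4 by 0.002, -0.62 and 0.04, and CDKN1B by 0.02, -0.50 and -0.12. CDKN2C shifted by 0.28, 0.37 and 0.37, and CDK2 by 0.24, -0.035 and 0.19. With a correction for length and GC content, without knockout library 2, CCND1 gave a log2 ratio of -0.33 (edgeR adjusted p = 0.000296), CDKN2D 0.42 (0.00874 on the same test) and CDKN2C 0.25 (0.0432). CCND3 then passed at -0.29 (edgeR adjusted p = 0.00264), and CDK6 no longer did (-0.45, 0.0684). With all 6 libraries the correction took CDK6 from -0.56 to -0.19 (edgeR adjusted p = 0.610), CDKN2D from 0.86 to 0.45 (0.146), CDKN2C from 0.34 to 0.22 (0.234), CCND3 from -0.15 to -0.31 (0.148), CDK4 from -0.16 to -0.32 (0.392) and CDK2 from 0.13 to 0.05 (0.786). In the same fit RB1 went from -0.65 to -0.48 (edgeR adjusted p = 0.265). There CCND1 went from -0.37 to -0.28 (edgeR adjusted p = 0.217) and CDKN1B from -0.18 to -0.21 (0.364). Such a correction removes any trend with length, also one that the knockout might cause, and the part of length in these differences was not tested otherwise.

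**Figure D4:**
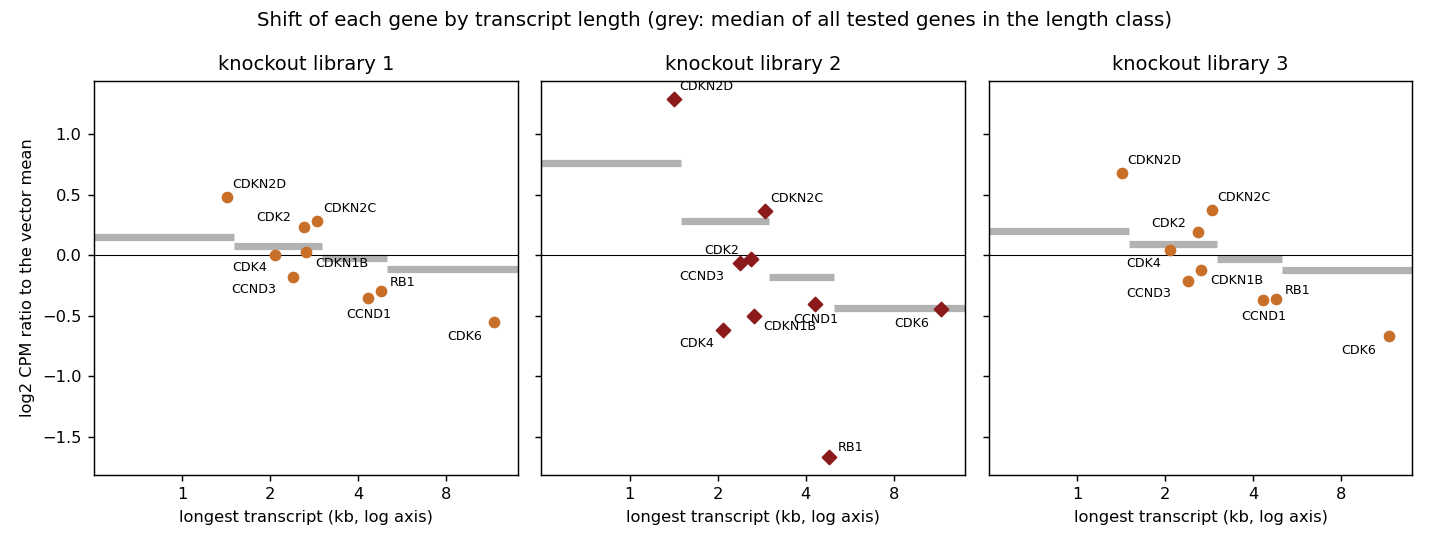
Log2 ratio of CPM to the vector mean for the 9 tested genes in each knockout library, against the length of the longest transcript (kb, log axis), with the median of all tested genes in 4 length classes in grey. The medians are of log2 CPM with a prior count of 2, and the points are of CPM without one. CDKN2D is the highest point in every library. CDK6 is the lowest in knockout libraries 1 and 3, and RB1 the lowest in knockout library 2, at -1.67.

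Levels were compared between genes per kb of longest transcript, in the vector libraries. In unshared reads CDK4 stood at 57.4 ± 2.33 CPM per kb (SD, n = 3), then CCND1 at 49.0 ± 2.81, CCND3 at 40.0 ± 1.18, CDKN1B at 23.6 ± 1.39 and CDK2 at 17.5 ± 0.664. CDKN2D at 10.4 ± 0.635 and CDKN2C at 9.61 ± 0.486 CPM per kb overlapped, RB1 followed at 5.00 ± 0.617, and CDK6 was at 0.687 ± 0.0947. CCND2 came last, at 0.0196 CPM per kb. All other neighbours in this order had separate values, but the order depends on the length and the reads used. Per kb of all exonic bases CCND1 (43.7) stood above CDK4 (37.6) and CDKN1B (22.3) above CCND3 (16.5). Per kb of longest transcript with shared reads added, CDK4 came to 120 ± 5.50, CCND1 to 72.5 ± 3.96 and CDK2 to 33.6 ± 3.24 CPM per kb, which put CDK2 above CDKN1B.

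Shares within each family were compared per transcript length, where the exact permutation test of 3 against 3 libraries cannot go below p = 0.1. CCND1 made up 55.1 ± 1.44% of D-type cyclin RNA in the vector and 51.3 ± 1.68% in the knockout libraries (SD, n = 3 each; difference -3.78 points, exact two-sided permutation p = 0.1), with CCND3 nearly all of the rest. With shared reads added the difference was 2.67 points (exact permutation p = 0.5). The split between CCND1 and CCND3 depends on the length and the reads used. Per kb of all exonic bases they stood at 43.7 and 16.5 CPM per kb in the vector libraries. Per kb of longest transcript with shared reads added they stood at 72.5 and 40.0. CDK4 made up 98.8 ± 0.197% and 99.0 ± 0.329% of CDK4 plus CDK6 RNA (exact permutation p = 0.3). CDKN2D went from 51.9 ± 1.89% to 59.9 ± 6.36% of the INK4 pair (exact permutation p = 0.1), at 55.4%, 67.2% and 57.3% in knockout libraries 1 to 3, and the difference fell from 8.02 to 4.39 points without knockout library 2.

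The genes most like each called gene over the 6 libraries, by Pearson's r of log2 CPM among 9753 protein-coding genes, are given as a description. For CCND1 they were CDC42EP3 (0.996) and YWHAZ (0.993). For CDKN2D they were YPEL3 (0.999) and LGALS3BP (0.997), for CDKN2C RHNO1 (0.996) and TLCD4 (0.993), and for CDK6 H2AC6 (0.994) and DHX37 (0.988). Without knockout library 2 these r values were 0.990 to 0.996. The libraries share 1 experiment, and knockout library 2 stands apart in them.

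The rest of the pathway was taken as 66 genes in 6 lists. With all 6 libraries 0 of 65 tested genes passed in edgeR in either direction (DESeq2 called CKS2 among the named genes, adjusted p = 0.0287) and 7 had an unadjusted p under 0.05 (background 21.7%). Without knockout library 2, 4 rose and 5 fell, 13.8% against a background of 19.1%. List medians in that fit were 0.10 for CDK2 partners and activators, 0.20 for other CDK inhibitors, -0.10 for pocket, E2F and DP genes, and -0.08 both for ubiquitin ligase genes and for kinases and factors acting on cyclin D and p27. Among 9 tested CDK2 partners and activators 2 rose and 0 fell. Both were CKS genes, whose small products bind CDKs, and that of CKS1B also helps the SCF ligase destroy p27. CKS2 was at 118, 120 and 115 CPM in the vector and 159, 200 and 153 CPM in the knockout libraries (log2 0.41 without knockout library 2, edgeR adjusted p = 0.000208). CKS1B rose by 0.40 in that fit (edgeR adjusted p = 0.000551), and for CCNE2, one of the cyclin E genes, the log2 fold change was -0.66 (edgeR adjusted p = 0.0551). With shared reads added CCNE2 was at -0.02 (edgeR adjusted p = 0.923). It was at -0.32 (0.533) with knockout library 3 also left out, and at -1.12 (0.0191) with knockout library 1 also left out.

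Of the 4 other CDK inhibitors 0 passed in either fit. CDKN1A, the p53 target p21, stood at 87.2, 88.5 and 90.2 CPM in the vector libraries, against 102, 119 and 93.9 CPM in the knockout libraries (log2 0.14 without knockout library 2, edgeR adjusted p = 0.197). CDKN2A, the INK4 gene of p16, gave a log2 ratio of 0.26 (edgeR adjusted p = 0.128) in that fit, and CDKN1C, at 1.84 CPM or less in every library, of 1.22 (edgeR adjusted p = 0.103). CDKN2B, the INK4 gene of p15, had a ratio of the opposite sign to those of the INK4 genes above, and was singled out after its values were seen. It was at 0.972, 1.01 and 1.54 CPM in the vector and 0.803, 0.818 and 0.465 CPM in the knockout libraries (log2 -0.88 without knockout library 2, edgeR adjusted p = 0.216). With all libraries the groups did not overlap for any of the 4. CDKN2B was lower in the knockout (background 19.0%), and CDKN1A, CDKN1C and CDKN2A were higher (background 20.4%).

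Among 12 pocket protein, E2F and DP genes RBL2 alone fell without knockout library 2, where 19.1% of all tested genes were called. It encodes p130, a relative of RB1 active in quiescent cells. Its levels were 44.7, 34.8 and 46.5 CPM in the vector and 33.8, 10.1 and 28.9 CPM in the knockout libraries, lowest in knockout library 2 as for RB1 (log2 -0.43 without that library, edgeR adjusted p = 0.0152). The call ended without vector library 1 or 3 or knockout library 3 (edgeR adjusted p = 0.0683, 0.0856 and 0.229). E2F3 and TFDP2 gave log2 ratios of -0.26 and 0.19 (edgeR adjusted p = 0.0948 and 0.133).

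Of 13 ubiquitin ligase genes only CUL4A, a scaffold protein gene, passed without knockout library 2 (log2 -0.20, edgeR adjusted p = 0.0407), against 19.1% of all tested genes. Its call was lost in DESeq2 (adjusted p = 0.0554), with upper quartile factors (edgeR, 0.0677) and with no filter on low counts (0.0950). It also ended when any 1 of vector libraries 1 and 3 and knockout libraries 1 and 3 was left out (edgeR adjusted p = 0.180, 0.0769, 0.197 and 0.324). RBX1 and CUL4B had log2 values of 0.19 and 0.21 (edgeR adjusted p = 0.0674 and 0.0867), and RBX1 passed with upper quartile factors (0.0417). Of 10 kinases and factors that act on cyclin D and p27, DYRK1B rose and DYRK1A and AKT1 fell without knockout library 2. In that fit 10.2% of all tested genes were called higher and 8.88% lower. The DYRK kinases, which phosphorylate D-type cyclins, went opposite ways, DYRK1B by 0.45 and DYRK1A by -0.39 (edgeR adjusted p = 0.0101 and 0.0185). AKT1 was at 187, 190 and 183 CPM in the vector and 164, 62.4 and 160 CPM in the knockout libraries (log2 -0.21 without knockout library 2, edgeR adjusted p = 0.0243). DYRK1A and AKT1 lost the call without vector library 1 (edgeR adjusted p = 0.0742 and 0.0955), knockout library 1 (0.0619 and 0.147) or knockout library 3 (0.222 and 0.282), DYRK1A also without vector library 3 (0.0936), and DYRK1B without knockout library 1 (edgeR adjusted p = 0.200). With trends in length and GC removed, DYRK1A, DYRK1B and CUL4A did not pass (edgeR adjusted p = 0.157, 0.0725 and 0.258), and AKT1 did not with shared reads added (log2 -0.07, edgeR adjusted p = 0.484) or with no filter on low counts (0.0514).

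In a list of 17 genes of S phase and proliferation, taken as E2F targets, TK1 rose and MKI67 fell without knockout library 2. In that fit 19.1% of all tested genes were called. TK1, thymidine kinase, was at 385, 421 and 357 CPM in the vector and 511, 974 and 513 CPM in the knockout libraries (log2 0.40, edgeR adjusted p = 0.000484). MKI67, the proliferation marker Ki-67, was at 129, 117 and 126 CPM in the vector and 99.9, 110 and 92.1 CPM in the knockout libraries (log2 -0.37, edgeR adjusted p = 0.00124, and 0.0750 when knockout library 3 was left out as well). After the length and GC correction TK1 was at 0.23 (edgeR adjusted p = 0.0100) and MKI67 at -0.23 (0.0116), and with all 6 libraries at 0.37 and -0.03, against 0.78 and -0.30 without the correction. PCNA, the replication clamp, gave a log2 ratio of 0.18 (edgeR adjusted p = 0.0515). Over the list the median was -0.06 in this fit, against -0.02 for all tested genes.

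**Figure D5:**
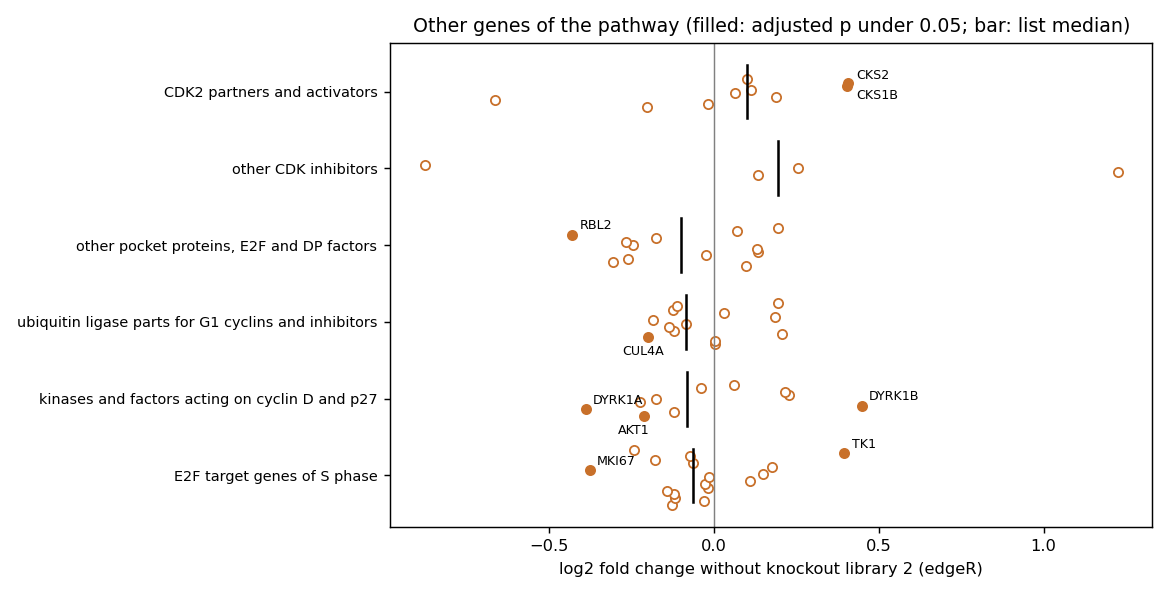
Log2 fold change without knockout library 2 of the 65 tested genes of 6 pathway lists, filled where the edgeR adjusted p was under 0.05, with the list median as a bar. The 9 filled genes lie on both sides of 0, from 0.45 for DYRK1B to -0.43 for RBL2.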

How the data were processed

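Bulk RNA was sequenced from 3 vector and 3 CDK12 knockout libraries, grouped by sample title. Per the submitters' processing notes FastQC, STAR and GRCh38 were used. Tool versions and the annotation used for counting were not given in the sources used here. The authors deposited raw read counts by gene, in 1 unstranded and 2 stranded columns. The 4 summary rows (11.1% to 14.4% of reads ambiguous) stayed out of library sizes and tests.

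Symbols matched 62672 of 62696 identifiers. Coordinates and lengths come from GENCODE 29 (GRCh38), possibly not the release used for counting. It held 15250 of 15783 tested genes. edgeR 4.0.16 under R 4.3.3 was fitted to the unstranded counts (robust quasi-likelihood, TMM factors, filterByExpr, no block), with Benjamini-Hochberg adjustment over all tested genes and a threshold of 0.05. SE is the log2 fold change divided by the square root of F. Alternatives were DESeq2 1.42.0, limma-voom (limma 3.58.1), other scaling, other filters, a replicate block, summed stranded columns, a length and GC correction (splines, 5 degrees of freedom per term) and leaving out each library. log2 CPM used a prior count of 2.

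The genes and lists were chosen with earlier results of these data known. From each list up to 3 genes with the smallest adjusted p without knockout library 2 are named, and for each called gene the 2 most correlated genes whose mean reached 5 CPM. Within a group, chi-square over its degrees of freedom was at least 3.27 for every pair, so 0 pairs agreed within sampling noise.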

Additional observations from a re-analysis of the deposited data

How the results depend on the processing

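With all 6 libraries edgeR called 94 genes, and 4 to 3123 with 1 library left out in turn, the highest without knockout library 2. It was 363 with no filter on low counts, 980 in DESeq2 and 163 after the length and GC correction. Without knockout library 2 the count was 3123, and 1134 to 4703 when a further library was left out. A lone knockout library is then assumed to vary like the vector libraries. The cause of these moves was not tested. With the replicate block the counts were 5 with all libraries and 5540 without knockout library 2. Same-numbered vector and knockout libraries had correlated deviations of r = 0.135, 0.194 and 0.084, each the highest for both libraries of its pair. The main fits had no block because the labels give these libraries only a number in common. Whether the numbers mark pairs was not tested otherwise. Under the block without knockout library 2, CCND3 (log2 -0.18, edgeR adjusted p = 0.00927) and RB1 (-0.43, 0.000184) passed.

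Over the 9 tested genes, 124 of 135 alternative values with all libraries and 103 of 126 without knockout library 2 kept direction and side of the threshold. With all libraries 0 of the 9 genes had passed, so keeping the side there only meant staying above the threshold. The 2 counts therefore do not rank the fits by stability. Signs turned with the summed stranded columns and all libraries for CCND1 (0.045), CDK2 (-0.22), CDK4 (0.45) and CCNE2 (0.0042), where shared reads enter by construction, and for the CCND1 share (2.67 points). CDK4 ranged from -0.27 to 0.016 with 1 library left out of 6 and from -0.0087 to 0.037 out of 5, and was -0.077 there after the length and GC correction. CDKN1B ranged from -0.13 to 0.021 out of 5. PCNA was -0.020 with all libraries after that correction. With all libraries DESeq2 called CCND1, CDKN2D and CKS2 (adjusted p = 0.0387, 0.0272 and 0.0287), and edgeR with no filter on low counts called CDKN2D (adjusted p = 0.0448). The 3 against 3 permutation tests cannot go below p = 0.1, so their p says nothing about stability.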
